A study of Mus musculus with 4 samples.

Results

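The mitochondrial ribosome is the machine inside mitochondria that translates the few messages of the mitochondrial genome, all of which code for core subunits of the respiratory chain and the ATP synthase. Its RNA comes from mitochondrial DNA, but its proteins are encoded in the nucleus, made in the cytosol and imported, so the genes of its large (Mrpl) and small (Mrps) subunits are measurable in nuclear RNA. Doxycycline, a tetracycline antibiotic that binds the small subunit of bacterial ribosomes, can also block translation by mitochondrial ribosomes. Here it was the inducer of a transgene.

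The genes were taken by symbol, as Mrpl or Mrps followed by a number and at most 1 letter, with the transcript of highest mean expression standing for each gene. Of 25177 gene symbols in the authors' deposited table, 78 matched, with 137 transcript rows. All 78 reached the level at which a gene was tested, a geometric mean of 10 counts per library, as did 12355 genes in all. The 78 were 51 proteins of the large subunit, counting Mrps30 and Mrps18a, which sit in the large subunit despite their names, 26 of the small subunit, and Mrps36. Mrps36 was named as a mitochondrial ribosomal protein but is now known as Kgd4, a component of the 2-oxoglutarate dehydrogenase complex.

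Nuclear RNA came from NIH3T3 cells, an established mouse embryonic fibroblast line, carrying H2B-mCherry, the rtTA3G transactivator and CDX2 under the doxycycline-controlled TRE3G promoter, and kept in medium with puromycin, penicillin and streptomycin, which all libraries share. The treated group (2 libraries) had doxycycline for 6 h and the control group (2 libraries) had solvent alone for the same time. The labels disagree on the unit of the dose, which is 500 ng/ml where RNA extraction is described and the same figure per microlitre where treatment is. No library had doxycycline without the CDX2 transgene, so effects of the drug and of CDX2 cannot be told apart here. The labels do not say whether the line is 1 clone, nor that replicates were grown apart, and the spread behind the p-values may thus be technical.

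The table used here holds the comparison without values by library, and each level below is a group level worked out from the mean level and the fold change, in CPM (counts scaled to the size of the library). Cdx2 rose by 6.95 ± 0.091 on the log2 scale (± standard error) per the authors' deposited table, which checks the labels and the sign. Of the fibroblast markers, 9 of 9 were tested, with mean levels of 5.64 to 2086 CPM, and their summed level was 6657 CPM with solvent and 5538 CPM with doxycycline. They moved in both directions: Pdgfra rose by 0.92 on the log2 scale, Col1a1, Col1a2, Col3a1, Vim, Fn1 and Pdgfrb fell, the last by 0.81, and Thy1 (0.30) and S100a4 (-0.12) did not pass per the authors' deposited table. Summed levels without and with doxycycline were 1.47 and 0.509 CPM for 4 epithelial markers, 2.27 and 2.17 for 3 of leukocytes, 4.39 and 3.81 for 2 of endothelium, 1.87 and 2.16 for 2 of muscle, and 0.0233 and 0.0429 for 2 of neurons. Of these markers, 1 of 4 epithelial, 2 of 3 leukocyte, 1 of 2 endothelial, 1 of 2 muscle and 0 of 2 neuron genes reached the level tested. The epithelial one was Cdh1, which fell (-1.62 on the log2 scale, adjusted p 2.14e-11) per the authors' deposited table. Krt18 and Myod1 were without reads. Whether these differences have a part in the results was not tested, and in bulk RNA fewer cells of a type and less RNA per cell cannot be told apart.

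Promoter sequences of the genes that the results turn on are shown first. They are the 3 genes called (Mrps36, Mrpl50 and Mrps2), the gene nearest to the threshold from outside (Mrpl34) and the gap between 2 of the 78 genes that start back to back (Mrps11 and Mrpl46). The sequences are RefSeq's on GRCm38.p6, the build also called mm10, read 5′ to 3′ on the strand of the named gene and ending just before its start. For Mrpl50 and Mrps11 only the bases between that start and the start of the gene on the other strand (Zfp189 and Mrpl46) are given. Capitals mark matches, on either strand, to the motifs searched: CCGGAAG for GABP and other ETS factors, GCGC and TGCGC with any 1 base between them for NRF1, AAGATGGC for YY1, the E-box CACGTG of Myc and related factors, and TTTATNG for Cdx proteins.
Mrps36, chr13:100744660-100744909, minus strand: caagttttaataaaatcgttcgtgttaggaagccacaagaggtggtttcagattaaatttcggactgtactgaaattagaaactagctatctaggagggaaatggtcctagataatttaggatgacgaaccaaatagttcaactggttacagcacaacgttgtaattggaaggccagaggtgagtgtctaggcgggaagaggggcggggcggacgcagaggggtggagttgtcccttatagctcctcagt
Mrps2, chr2:28467816-28468065, plus strand: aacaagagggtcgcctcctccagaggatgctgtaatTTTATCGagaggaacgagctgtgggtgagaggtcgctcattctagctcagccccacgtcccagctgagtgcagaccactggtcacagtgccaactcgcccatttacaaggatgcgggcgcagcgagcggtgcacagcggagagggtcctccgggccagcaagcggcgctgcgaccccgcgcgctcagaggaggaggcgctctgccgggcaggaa
Mrpl34, chr8:71464676-71464925, plus strand: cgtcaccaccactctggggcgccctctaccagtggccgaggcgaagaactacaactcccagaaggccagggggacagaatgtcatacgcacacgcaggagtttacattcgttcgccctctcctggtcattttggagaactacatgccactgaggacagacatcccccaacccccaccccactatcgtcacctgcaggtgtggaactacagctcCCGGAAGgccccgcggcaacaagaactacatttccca
Mrpl50, chr4:49521084-49521175, minus strand: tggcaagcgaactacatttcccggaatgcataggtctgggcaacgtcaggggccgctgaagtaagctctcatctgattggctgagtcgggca
Mrps11, chr7:78783090-78783130, plus strand: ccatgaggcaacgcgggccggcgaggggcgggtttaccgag
The Mrps2 sequence holds 1 Cdx motif and the Mrpl34 sequence 1 ETS motif, and the other 3 hold no match in the bases shown. A match describes the letters only, and no match says only that these letters are not in this window.

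Mitochondrial ribosomal protein genes stayed close to their control level after 6 h of doxycycline. Of 78 tested, 1 rose (Mrps36), 2 fell (Mrpl50 and Mrps2) and 75 did not pass, by the authors' limma test at an adjusted p under 0.05. That is 3.85% of the members called, beside 24.7% of all 12355 genes tested, 11.3% higher and 13.4% lower. Among the 9196 genes tested whose mean level lies within the range of the members, 26.4% were called. At an unadjusted p under 0.05 there were 6 members, or 7.69%, beside 36.4% of all genes tested, per the authors' deposited table. Without Mrps36, 2 of 77 were called, both lower.

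The fold changes were small in both directions. The median log2 fold change of the 78 genes was 0.019 (quartiles -0.054 and 0.089), and that of all genes tested was -0.0011 (quartiles -0.13 and 0.13). Values above 0 were found for 45 members and below 0 for 33, beside 6146 and 6209 of all genes tested. The median size of the change, taken without its sign, was 0.072 for members, beside 0.133 for all genes tested and 0.125 for genes in the same range of levels. A size above 0.2 on the log2 scale was reached by 5 members (6.41%) and by 34.9% of all genes tested. No member exceeded 0.5, while 8.98% of all genes tested did. The median standard error was 0.078 for members and 0.079 for genes in the same range of levels.

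**Figure D1:**
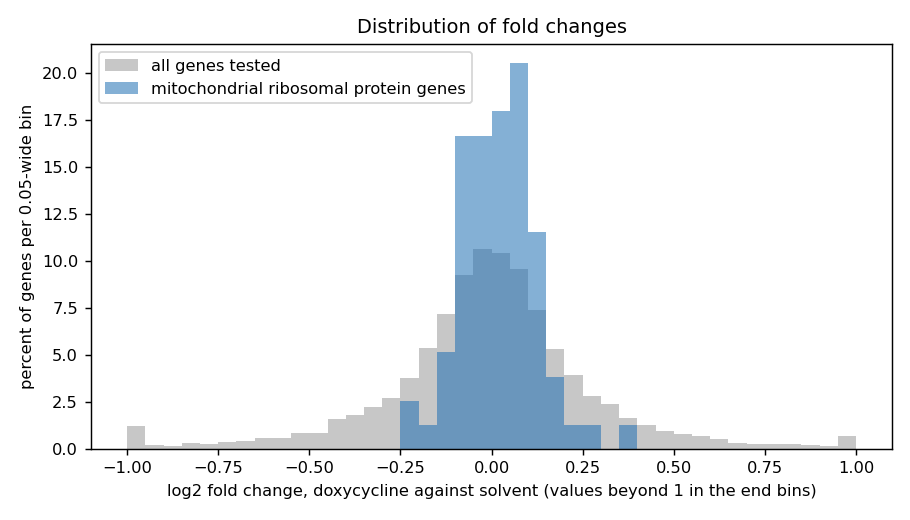
Percent of genes in each 0.05-wide bin of the log2 fold change (doxycycline against solvent, horizontal axis) for the 78 mitochondrial ribosomal protein genes (blue) and all 12355 genes tested (grey). The blue values lie between -0.24 and 0.35, and the grey ones reach both end bins.

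Intervals bound the size of the changes. The 95% intervals of all 78 genes lay inside a 1.5-fold change in either direction, as did those of 79.3% of all genes tested and 88.3% of genes in the same range of levels. These intervals use standard errors that follow from the mean level alone (99.6% of their variance on the log scale), and so rest on a spread shared by transcripts of like level, not on each gene's own replicates. When each standard error was multiplied by 2.08, which is the robust SD of t over all genes tested, 73 of 78 intervals still lay inside 1.5-fold, and those of Mrps33, Mrpl24, Mrpl23, Mrpl34 and Mrps36 did not.

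**Figure D2:**
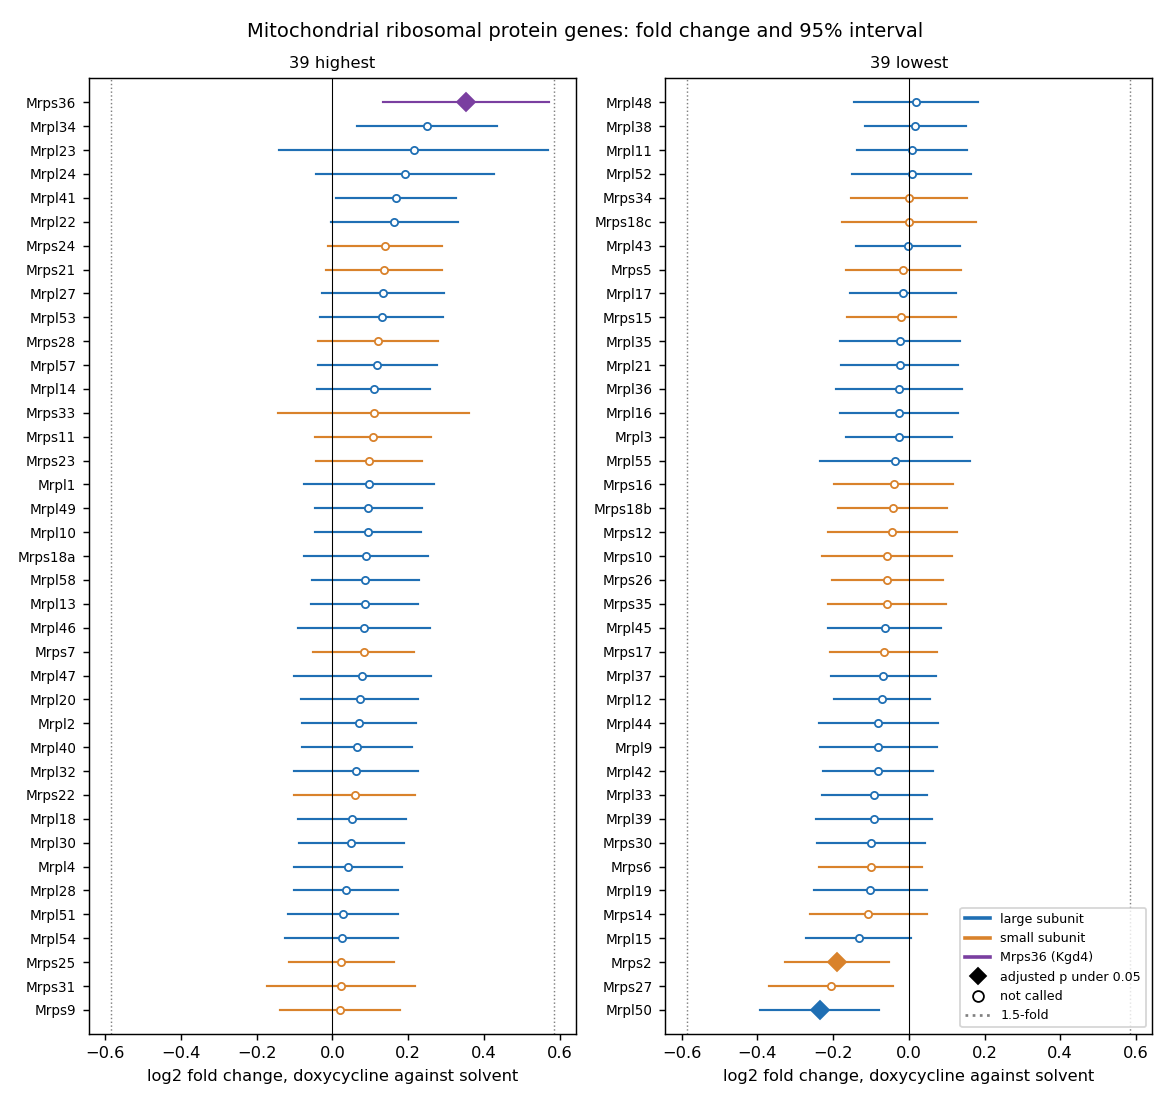
Log2 fold change (horizontal axis, doxycycline against solvent) of each of the 78 genes with its 95% interval, the 39 highest on the left and the 39 lowest on the right, coloured by ribosomal subunit, with filled diamonds for an adjusted p under 0.05. Every interval lies between the dotted lines at 1.5-fold, and Mrps36, Mrps2 and Mrpl50 carry the diamonds.

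Mrps36 (NM_025369, chromosome 13, 100735940 to 100744659) had the largest change of the 78. Its level was 4.75 CPM with solvent and 6.06 CPM with doxycycline. It rose by 0.35 ± 0.11 on the log2 scale, or 27.6%, with an adjusted p of 0.0143 per the authors' deposited table. Its other transcript row gave 0.36, also called, per the authors' deposited table. As a subunit of 2-oxoglutarate dehydrogenase, which works in the citric acid cycle, it is the member that does not do what the family name says.

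Mrpl50 (NM_178603, chromosome 4, 49512597 to 49521083) codes for a large subunit protein with no bacterial counterpart. Its level was 18.1 CPM with solvent and 15.4 CPM with doxycycline. It fell by 0.24 on the log2 scale (standard error 0.080), or 15.1%, with an adjusted p of 0.0244 per the authors' deposited table. Mrps2 (NM_080452, chromosome 2, 28468066 to 28471177) codes for the counterpart of bacterial protein S2 in the small subunit. Its level was 40.0 CPM with solvent and 35.0 CPM with doxycycline, and it fell by 0.19 (standard error 0.070), or 12.3%, with an adjusted p of 0.0468 per the authors' deposited table. Both rows of Mrps2 were called.

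All 3 calls were lost when standard errors were widened by 2.08 (adjusted p 0.683 for Mrps36, 0.730 for Mrpl50 and 0.797 for Mrps2). That factor comes from all genes tested and counts any true response among them as spread. Over the members alone the robust SD of t was 1.36. The loss therefore cannot show whether these calls are real. The falls of Mrpl50 and Mrps2 were also lost when fold changes were centred on the cytosolic ribosomal protein genes (adjusted p 0.0543 and 0.105, over the genes tested).

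Just outside the threshold stood Mrpl34, the counterpart of bacterial L34, at 8.08 CPM with solvent and 9.60 CPM with doxycycline. Its log2 difference was 0.25 ± 0.094 with an adjusted p of 0.0525 per the authors' deposited table. When p was adjusted over the 12355 genes tested rather than over all rows of the table, it passed (adjusted p 0.0321). Mrps27, a pentatricopeptide repeat protein of the small subunit, followed at 15.0 and 13.0 CPM, with a log2 difference of -0.21 ± 0.084 and an adjusted p of 0.0845 per the authors' deposited table. It overlaps 6430562O15Rik on the opposite strand, and whether counting used strand is not stated.

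The remaining extremes were not called. On the high side were Mrpl23 (0.21 ± 0.18, adjusted p 0.605) and Mrpl24 (0.19 ± 0.12, adjusted p 0.378), counterparts of bacterial L23 and L24 at the exit of the peptide tunnel, and Mrpl41 (0.17 ± 0.081, adjusted p 0.180), per the authors' deposited table. Low levels went with the wide errors of the first pair: Mrpl23 was at 1.38 CPM with solvent and 1.60 with doxycycline, and Mrpl24 at 3.84 and 4.38. On the low side were Mrpl15 (-0.13 ± 0.071, adjusted p 0.252), counterpart of bacterial L15, and Mrps14 (-0.11 ± 0.079, adjusted p 0.506), counterpart of bacterial S14, per the authors' deposited table.

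By subunit, the large subunit genes had 1 call of 51 (Mrpl50), a median log2 fold change of 0.028 and a range of -0.24 to 0.25. Small subunit genes had 1 call of 26 (Mrps2), a median of -0.0070 and a range of -0.21 to 0.14. In the large subunit 31 values lay above 0 and 20 below, and in the small subunit 13 lay on each side. Of the 48 genes whose protein has a bacterial counterpart, 1 was called (Mrps2), with a median of 0.014. Of the 30 without one, 2 were called (Mrpl50 and Mrps36), with a median of 0.020. The difference between these groups was not tested.

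Functional sites of the ribosome are represented by members that did not pass, named here by role after their values were seen. At the stalk that recruits translation factors, Mrpl10 stood at 0.09 ± 0.071, Mrpl11 at 0.01 ± 0.074 and Mrpl12 at -0.07 ± 0.065 (log2 fold change ± standard error) per the authors' deposited table. Mrpl1, of the mobile stalk beside the exit site for tRNA, stood at 0.10 ± 0.087 per the authors' deposited table. Near the peptide exit, Mrpl22 stood at 0.16 ± 0.086, and Mrpl45, which anchors the ribosome to the inner membrane, at -0.06 ± 0.076 per the authors' deposited table. All of these intervals include 0.

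At the decoding site of the small subunit, Mrps12, the counterpart of bacterial S12, stood at -0.04 ± 0.087, and Mrps5 at -0.01 ± 0.077 per the authors' deposited table. The 3 paralogues of bacterial S18 differed little, with Mrps18a at 0.09 ± 0.083, Mrps18b at -0.04 ± 0.073 and Mrps18c at 0.00 ± 0.091 per the authors' deposited table. Mrpl58, also known as Ict1, a peptidyl-tRNA hydrolase that is built into the large subunit and frees stalled peptides, stood at 0.09 ± 0.072 per the authors' deposited table. The intervals of these genes include 0 as well.

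Levels varied far more between members than between groups. Per kilobase of exon, mean levels ran from 2.25 CPM for Mrpl23 to 87.7 CPM for Mrpl12, with a median of 17.5 beside 5.86 over all genes tested. The highest after Mrpl12, the stalk protein, were Mrpl33 (75.9 CPM per kilobase), Mrps6 (54.8), Mrpl30 (44.0) and Mrpl52 (41.7). The lowest after Mrpl23 were Mrpl48 (2.98), Mrpl1 (3.46), Mrps33 (3.48) and Mrpl24 (4.37). None of these 10 genes was called, and their log2 fold changes lay between -0.10 for Mrps6 and 0.21 for Mrpl23 per the authors' deposited table. Mrpl48 is represented by a noncoding transcript (NR_003559) that holds the most reads. The span of Mrps6 contains Slc5a3 on the same strand, and 11 members in all overlap another gene's row, so these values may include shared reads.

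Other isoforms differed little from the chosen rows. Of the 78 genes, 25 had more than 1 row, and in 0 of these did rows differ in sign or in call per the authors' deposited table. The fold changes of a gene's rows spanned 0.012 at the median. Mrpl48 spanned the most, from 0.02 in the chosen noncoding row to 0.16 in another noncoding one, with 0.12 in its coding row (NM_198831). Rows of 1 gene share exons and therefore reads.

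Members with low levels tended to lie higher. Of 6 members with a mean under 8 CPM, 5 lay above 0 (Mrps36, Mrpl23, Mrpl24, Mrps33 and Mrps31) and Mrpl55 below, with a median of 0.15, beside 40 of 72 above 0 and a median of 0.013 at higher levels. The bound of 8 CPM was not among the planned settings, and of the 6 only Mrps36 was called. Over all genes tested, 53.4% of those under 8 CPM and 47.9% of those at higher levels lay above 0. Spearman's rho between level and fold change was -0.33 over the 78 genes and -0.13 over all genes tested. For exon length it was -0.30 and -0.11. These are descriptions over genes that share the same 4 libraries. Once the trend of fold change with level over all genes tested was removed, the members' median moved to -0.0033.

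**Figure D3:**
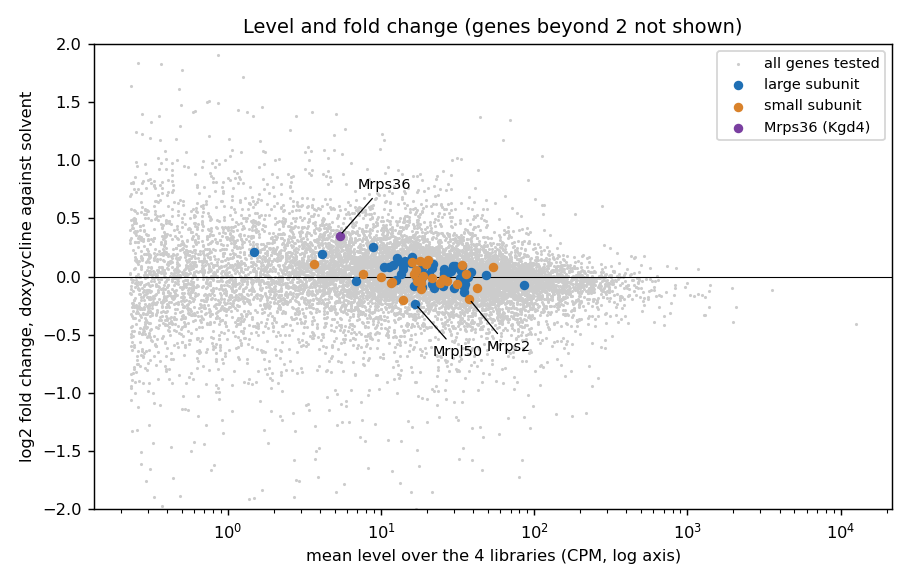
Log2 fold change (vertical axis, doxycycline against solvent) against the mean level over the 4 libraries (CPM, log axis) for all genes tested (grey) and for members of the large subunit (blue), the small subunit (orange) and Mrps36 (purple). The members lie between 1.49 and 85.2 CPM in a narrow band around 0 within the wider grey cloud. The vertical axis is cut, so grey points do not cover the full range of tested genes, -3.33 to 6.95.

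Some of these genes start close to a gene on the opposite strand. For 31 of the 78, a gene on the opposite strand has a start within 1000 bases, and in 30 cases that gene was tested. The pairs need not point away from each other: Mrpl43 overlaps Twnk, and Mrpl48 overlaps Rab6a. The share with such a neighbour was not worked out for all genes tested. Of the 28 tested partners that are not members themselves, 3 were called, or 10.7%, beside 24.7% of all genes tested, and the median size of their log2 fold change was 0.083. Mrps11 and Mrpl46, whose starts lie 42 bases apart across the short sequence printed above, stood at 0.11 ± 0.078 and 0.08 ± 0.089 per the authors' deposited table. Mrps12 and Sars2, the mitochondrial seryl-tRNA synthetase gene 147 bases away, stood at -0.04 ± 0.087 and 0.02 ± 0.098 per the authors' deposited table.

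The 3 called partners stood beside members that were not called. Klc4, a kinesin light chain gene, rose by 0.74 ± 0.14 (adjusted p 1.32e-06), while Mrpl2, 149 bases away, stood at 0.07 ± 0.077 per the authors' deposited table. C920021L13Rik rose by 0.94 ± 0.17 (adjusted p 1.17e-06), with Mrps21, 8 bases away, at 0.14 ± 0.078 per the authors' deposited table. Pnpla7, a lysophospholipase gene, fell by 0.32 (standard error 0.10, adjusted p 0.0148), with Mrpl41, 935 bases away, at 0.17 ± 0.081 per the authors' deposited table. Beside the called member Mrpl50, Zfp189, 93 bases away, stood at 0.11 ± 0.13 (adjusted p 0.816) per the authors' deposited table. The differences within pairs were not tested.

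**Figure D4:**
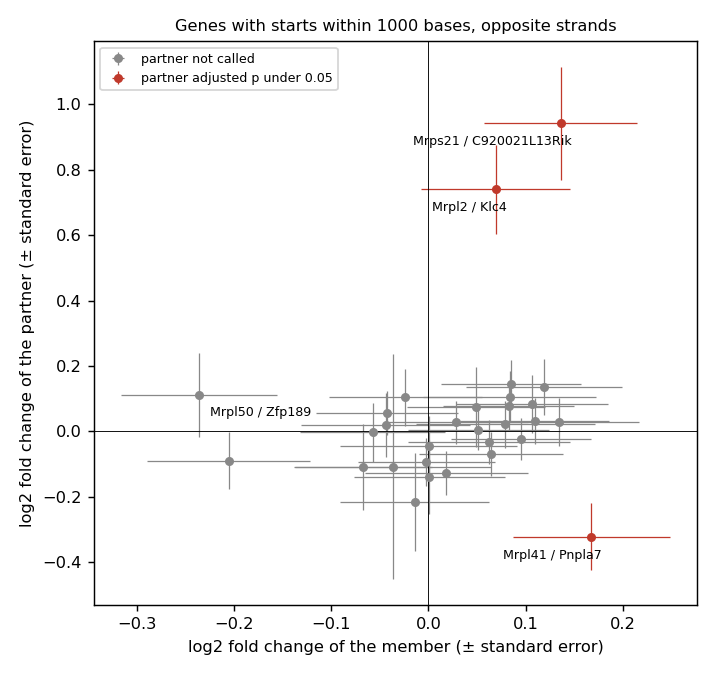
Log2 fold change (doxycycline against solvent, ± standard error) of each member (horizontal axis) and of the tested gene that starts within 1000 bases on the opposite strand (vertical axis), with called partners in red. Most pairs lie near 0 on both axes, and Klc4, C920021L13Rik and Pnpla7 stand apart from the rest on the vertical axis.

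A promoter entry, 250 bases before to 50 after the start, was matched for 69 of the 78 genes. The ETS motif CCGGAAG was in 24 of them (34.8%), beside 8.86% of all 32851 promoters of the same length. That background was not limited to genes tested, whereas all members were tested, so the shares compare unlike sets. The NRF1 motif was in 13 (18.8%) beside 4.60%, and its stricter form with A at the open base, whose matches are all among the first, in 3 (4.35%) beside 0.971%. The YY1 motif AAGATGGC was in 12 (17.4%) beside 2.75%, the E-box CACGTG in 5 (7.25%) beside 7.15%, and the Cdx motif TTTATNG in 10 (14.5%) beside 10.9%. GABP, NRF1 and YY1 are known activators of nuclear genes for mitochondrial proteins.

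The 24 genes with the ETS motif had a median log2 fold change of 0.040, and the 45 others with an entry 0.019. For the Cdx motif the medians were -0.0021 with and 0.020 without. Mrps2 was the 1 called gene among the 10 with it, and Mrpl50 and Mrps36 were called among those without. No called gene held any of the other motifs. Medians with and without the NRF1 motif were -0.015 and 0.022, with -0.081 for the 3 genes that hold its stricter form, and for YY1 they were 0.019 and 0.020. For the E-box they were 0.00 and 0.02, and none of these differences was tested.

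Other genes of mitochondrial translation were counted in lists, each beside the same 24.7% of all genes tested (11.3% higher and 13.4% lower). Mitochondrial ribosomal proteins under other names (Dap3, Ptcd3, Chchd1, Aurkaip1 and Gadd45gip1) had 0 of 5 called by the authors' limma test, and 0 at an unadjusted p under 0.05, with values from -0.12 for Ptcd3 to 0.11 for Aurkaip1 per the authors' deposited table. Of 14 translation factors 1 fell, Oxa1l (-0.19 ± 0.071, adjusted p 0.0477), which inserts newly made proteins into the inner membrane, and 13 did not pass per the authors' deposited table. The elongation factor Tufm stood at -0.15 ± 0.069 (adjusted p 0.153) per the authors' deposited table. The list's median was -0.074.

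Of 26 assembly factors, 1 rose, 5 fell and 20 did not pass per the authors' deposited table, or 23.1%, with a median of -0.032. The falls were those of the GTPase Noa1 (-0.41 ± 0.072, adjusted p 2.85e-07), Mettl15 (-0.53 ± 0.13), a methyltransferase of the small subunit RNA, Fastkd2 (-0.25 ± 0.075), Mrm3 (-0.27 ± 0.091), a methyltransferase of the large subunit RNA, and Rcc1l (-0.22 ± 0.080) per the authors' deposited table. Mterf3 rose by 0.27 ± 0.092 per the authors' deposited table. Gtpbp10 was under the level tested.

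Genes that charge mitochondrial tRNAs had 6 falls among 22, or 27.3%, beside 13.4% lower over all genes tested. The other 16 did not pass per the authors' deposited table, and the list's median was -0.14. Mars2 for methionine (-0.55 ± 0.077, adjusted p 4.05e-11) went from 25.2 to 17.2 CPM, and Lars2 for leucine (-0.33 ± 0.064, adjusted p 6.80e-06) from 136 to 108 CPM per the authors' deposited table. Yars2 (-0.26 ± 0.072), Gatb (-0.40 ± 0.12), a subunit of the amidotransferase that makes glutaminyl-tRNA, Vars2 (-0.24 ± 0.077) and Aars2 (-0.24 ± 0.084) also fell per the authors' deposited table. At an unadjusted p under 0.05 there were 11 of 22 per the authors' deposited table.

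Genes for mitochondrial transcription and RNA processing had 3 falls among 21, or 14.3%, beside 13.4% lower over all genes tested, with a median of -0.095 per the authors' deposited table. They were Elac2 (-0.40 ± 0.071), which trims tRNA 3′ ends, Tefm (-0.43 ± 0.12), the transcription elongation factor, and Lrpprc (-0.28 ± 0.065), which stabilises mitochondrial messages, per the authors' deposited table. Mitochondrial chaperones and proteases had 2 falls among 15, Afg3l2 (-0.20 ± 0.069) and Hspd1 (-0.16 ± 0.059), per the authors' deposited table. The median of that list was -0.081.

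Genes of the mitochondrial stress response, which include ATF4 targets, had 1 rise and 5 falls among 15, or 40.0%, with a median of -0.17 per the authors' deposited table. Ddit3 rose by 0.37 ± 0.11, and Shmt2 (-0.26 ± 0.064), Aldh18a1 (-0.25 ± 0.066), Asns (-0.23 ± 0.065), Chac1 (-0.31 ± 0.094) and Phgdh (-0.20 ± 0.063), most of them enzymes of amino acid and folate metabolism, fell per the authors' deposited table. Gdf15 and Fgf21 were under the level tested. Atf4 stood at -0.0031 ± 0.063 per the authors' deposited table.

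Among 8 regulators of mitochondrial biogenesis, 3 fell per the authors' deposited table. The coactivator genes Ppargc1b (-0.85 ± 0.096) and Pprc1 (-0.45 ± 0.064) fell, as did Myc (-1.30 ± 0.065), per the authors' deposited table. Nrf1 (0.18 ± 0.074, adjusted p 0.0864), Gabpa (0.0024 ± 0.069) and Yy1 (-0.0032 ± 0.068), whose factors bind the promoter motifs counted above, did not pass per the authors' deposited table. The list's median was -0.00040, and Ppargc1a was under the level tested.

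Cytosolic ribosomal protein genes had 0 of 82 called by the authors' limma test, and 0 at an unadjusted p under 0.05, per the authors' deposited table. Their median log2 fold change, as deposited, was -0.044, with 77 of 82 below 0, beside 33 of 78 below 0 for the mitochondrial ones. Centring all fold changes on that median, with p adjusted anew over the genes tested, left 2136 called higher and 1451 called lower, beside 1575 and 1817 with that adjustment and no centring, and 1393 and 1654 as deposited. The calls among mitochondrial ribosomal protein genes were then 3 higher (Mrps36, Mrpl34 and Mrpl41) and 0 lower. Adjusted in that way without centring, Mrps36, Mrpl34, Mrpl50 and Mrps2 were called, so centring gained Mrpl41 and lost Mrpl50 and Mrps2.

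**Figure D5:**
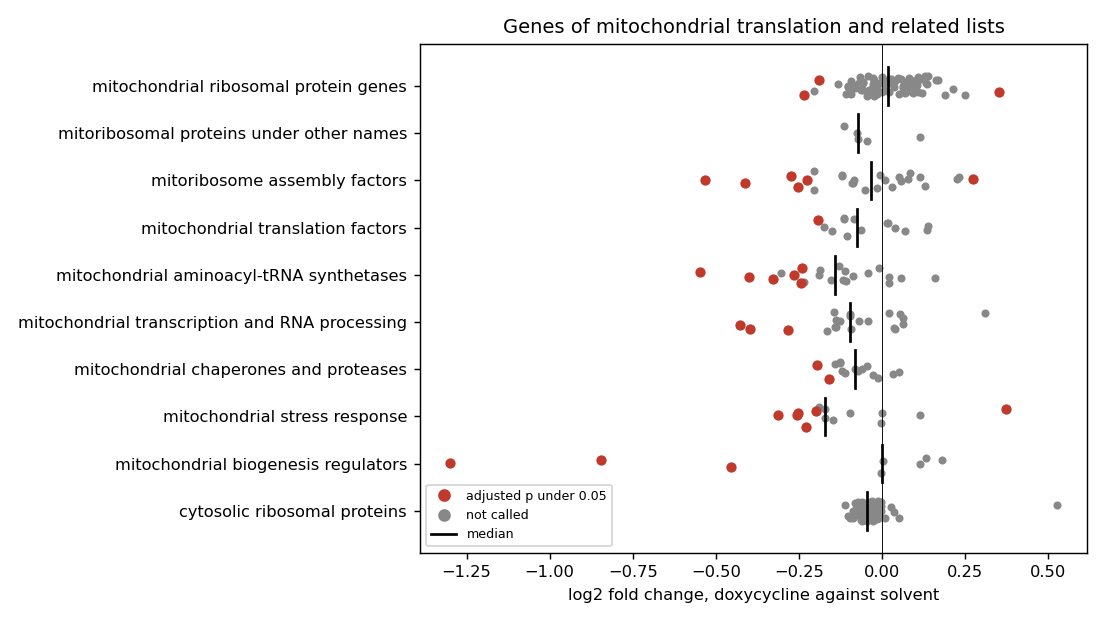
Log2 fold change (horizontal axis, doxycycline against solvent) of each tested gene in the mitochondrial ribosomal protein group and in the lists of related genes (rows), in red where the adjusted p is under 0.05, with a black bar at each median. The top row and, apart from 1 uncalled gene at 0.53, the cytosolic ribosomal proteins are packed around 0. Rows of assembly factors, tRNA synthetases, transcription and RNA processing, stress response genes and biogenesis regulators reach further to the left.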

How the data were processed

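Groups were taken from the sample titles. Per the submitters' processing notes, the build was mm10 and the tools were HOMER 4.10, limma, edgeR, Picard, SAMtools 1.10 and STAR 2.7.1a, listed without their roles. Per the file headers, the deposited table holds limma's columns for 40739 RefSeq transcripts: a log2 fold change, a mean log2 CPM, a t score with a log-odds score (not used), and p-values, plain and adjusted. Its other columns used here are the transcript start, end and exon length. It holds no values per library, so the planned count model was replaced by the authors' own test. The lowest mean, shared by 9211 rows without reads, implies about 45700000 effective counts per library (0.5 added per count), as a geometric mean.

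The standard error is the log2 fold change over t, intervals are normal at 95%, and genes whose mean reached 10 counts (0.230 CPM) were tested and called at an adjusted p under 0.05, as deposited. The sources used here do not give the strand setting of the counting or how reads matching pseudogene copies were treated. Of the mitochondrially encoded genes, 0 rows are in the table used here.

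The genes and lists were chosen with earlier results of these data known. Named members are those called, the 5 highest and 5 lowest by fold change, the 5 highest and 5 lowest by level per kilobase, and up to 6 called genes per list; others are named by role, neighbour or promoter after their values were seen. Alternatives covered the transcript chosen, the floor, the p adjustment, wider errors, centring and the trend with level, the last 3 with p adjusted over the genes tested. Calculations used Python 3.11.15 with pandas 2.3.3, scipy 1.17.1 and statsmodels 0.14.6 and were tested on simulated data.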

Additional observations from a re-analysis of the deposited data

How the results depend on the processing

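The counts of members called (1 higher, 2 lower) did not change with the longest transcript per gene, no floor, or a floor of 50 counts. Those settings could not change them. They kept the adjusted p as deposited, every member lies above 50 counts, and no member's rows differ in call. Adjusting p over the genes tested gave 2 higher and 2 lower, with Mrpl34 added. The alternatives that follow used that adjustment too. Centring on the median of all genes tested left the calls at 2 and 2, and centring on cytosolic ribosomal protein genes gave 3 higher and 0 lower. Wider standard errors gave 0 and 0, with 190 genes higher and 386 lower over all genes tested, or 4.66%, beside 1575 and 1817. The widening counts any true response as spread. Removing the trend with level gave 1 higher and 3 lower, with Mrps27 added and Mrpl34 not called. Signs under each setting were followed for 18 members only, those called or extreme in fold change or level. Among these, removing the trend turned the uncalled values of Mrpl48 and Mrpl52 to -0.021 and -0.028. The members' median ranged from -0.0033 to 0.063 over the alternatives. No paired analysis was possible because the table holds no values per library, and leaving out single libraries was not run for the same reason. At 67.5 to 3896 mean counts per library, the smallest member levels carry the widest errors.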

Other observations

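The cytosolic aminoacyl-tRNA synthetases, a list added after seeing the data, had 7 falls among 18, or 38.9%, in the authors' deposited table. The share lower was 27.3% for the mitochondrial ones and 13.4% over all genes tested. The median log2 fold change was -0.14 for the cytosolic list and -0.14 for the mitochondrial one. The falls were those of Rars (-0.34 ± 0.065, adjusted p 4.78e-06), Vars (-0.24 ± 0.061), Wars (-0.24 ± 0.069), Iars (-0.24 ± 0.063), Tars (-0.20 ± 0.065), Nars (-0.19 ± 0.063) and Lars (-0.19 ± 0.065) per the authors' deposited table. Kars and Gars, which serve both compartments and were counted with the mitochondrial list, stood at -0.11 ± 0.063 and -0.13 ± 0.063 (adjusted p 0.315 and 0.189) per the authors' deposited table. Vars and Vars2, Lars and Lars2, which use the same amino acid in the cytosol and in mitochondria, were each called lower. Other pairs were split. Mars2, Aars2 and Yars2 fell, while Mars1 (-0.08 ± 0.070, adjusted p 0.666), Aars (0.04 ± 0.062, adjusted p 0.873) and Yars (-0.14 ± 0.065, adjusted p 0.145) did not pass. Rars, Wars, Iars, Tars and Nars fell, while their mitochondrial counterparts did not pass per the authors' deposited table. The adjusted p was 0.873 for Rars2, 0.109 for Wars2, 0.873 for Iars2, 0.0819 for Tars2 and 0.0646 for Nars2. The differences between the cytosolic and mitochondrial genes were not tested.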
